A study of Mus musculus with 15 samples.

Results

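The contractile apparatus of smooth muscle was followed through 10 genes in polypoid and inflamed areas of the colon of mice that had received a carcinogen and a colitis-inducing agent, namely Lmod1, Cnn1, Tagln, Myl9, Synm, Des, Acta2, Actg2, Myh11 and Smtn. They were found by the gene name that the array files give to each probe, with old symbols brought up to date through the probe's accession, so that Synm was reached from its older name Dmn. The 10 genes had 16 of the 41174 probes, and all 10 were among the 21301 genes tested. Of the 16 probes, 15 were kept, and 1 of the 5 Acta2 probes was well above background on no array.

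Smooth muscle shortens when myosin pulls on thin filaments of actin that are anchored in dense bodies. Calcium switches this on through phosphorylation of the regulatory light chain of myosin, and intermediate filaments hold the dense bodies together. In the colon the cells that make these proteins in quantity lie in the muscularis mucosae below the crypts, in the outer muscle coat and in vessel walls, and myofibroblasts of the lamina propria make part of the set. Many of the genes are driven by serum response factor with its partner myocardin through a DNA element called the CArG box.

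All mice were female Swiss Webster mice, an outbred strain, which received the colon carcinogen azoxymethane at 7.4 mg/kg. They then had 3 cycles of 7 days of 4% dextran sulfate sodium, which injures the colon lining, and 21 days of water. They were 7 weeks old at the outset, 9 weeks old when dextran sulfate sodium began and 18 weeks old when killed. The stated cycles add up to more time than lies between the last 2 ages, which the sources used here do not settle. The groups were polypoid tissue of mice given 5-aminosalicylic acid (5-ASA, an anti-inflammatory drug, 75 mg/kg), polypoid tissue of untreated mice, inflamed tissue of 5-ASA mice and inflamed tissue of untreated mice. Each group held 2 animals, and each animal gave tissue to 1 group. The study's design describes a vehicle arm, whereas the labels of the control mice give no treatment, and "untreated" is used here. No group without carcinogen and dextran sulfate sodium was analysed here, so all values compare exposed mice with each other.

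The tissue was cut from frozen sections by laser capture, and its RNA was amplified in a pair of rounds and hybridised on 15 arrays beside a universal mouse reference RNA. A level below is the log2 ratio of sample to that reference for 1 animal, so 0 means a level equal to the reference, and levels are compared between animals for 1 gene, never between genes. Every animal but 1 had an array in each dye orientation. The exception, 5-ASA inflamed replicate 2, had a Cy3 array only, and its level rests on the dye effect estimated from the others. The median sample intensity was 148.6 to 257.2 units per array over a background of 41 to 63, and 57.4% to 90.9% of spots were well above background. Scanning fell into 4 sessions. Session 1 held replicate 1 of both inflamed groups, session 2 replicate 1 of both polypoid groups, session 3 replicate 2 of both polypoid groups and of untreated inflamed tissue, and session 4 the remaining inflamed animal. All 10 epithelial markers of the colon were measured, and 8 of the 10 contractile genes were well above background on all 15 arrays, with Des and Smtn as the exceptions.

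The start regions of the members were searched for CArG boxes, and a part of serum response factor in these data was not tested. RefSeq windows (assembly GRCm38.p6, 250 bases before to 50 after the annotated start) matched 7 of the 10 genes, with none for Tagln, Actg2 and Myh11. The strict CArG box, CC and GG on either side of a run of A and T with 10 bases in all, reads the same pattern on both strands. It was in 1 of the 7 windows, that of Myl9, and in 1.63% of 32851 mouse windows of that length. With at most 1 G or C allowed in the run, boxes were in 3 of the 7 windows and in 9.98% of all windows. The windows of Myl9 (chr2:156775214-156775513, plus strand), Acta2 (chr19:34255324-34255623, minus strand) and Synm (chr7:67759693-67759992, minus strand) follow 5′ to 3′, with the boxes in capitals.
Myl9: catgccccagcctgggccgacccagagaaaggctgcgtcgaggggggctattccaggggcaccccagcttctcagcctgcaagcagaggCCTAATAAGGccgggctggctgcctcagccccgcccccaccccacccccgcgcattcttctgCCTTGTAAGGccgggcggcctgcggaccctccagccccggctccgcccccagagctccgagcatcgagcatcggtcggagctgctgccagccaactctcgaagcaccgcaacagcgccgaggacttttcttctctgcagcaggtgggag
Acta2: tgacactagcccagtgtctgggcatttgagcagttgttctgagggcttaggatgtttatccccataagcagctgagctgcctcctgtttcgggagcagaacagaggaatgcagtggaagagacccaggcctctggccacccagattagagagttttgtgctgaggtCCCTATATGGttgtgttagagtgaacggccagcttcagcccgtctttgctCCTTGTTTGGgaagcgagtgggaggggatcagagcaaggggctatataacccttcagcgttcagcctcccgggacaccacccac
Synm: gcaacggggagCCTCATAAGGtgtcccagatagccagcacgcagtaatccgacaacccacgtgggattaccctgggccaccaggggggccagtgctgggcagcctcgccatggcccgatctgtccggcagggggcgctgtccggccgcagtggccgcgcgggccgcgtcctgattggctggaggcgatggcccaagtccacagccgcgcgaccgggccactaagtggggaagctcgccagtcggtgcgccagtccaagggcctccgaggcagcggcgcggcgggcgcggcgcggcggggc
In Myl9 the strict box CCTAATAAGG begins 161 bases before the start and the relaxed box CCTTGTAAGG begins 99 bases before it. In Acta2 the relaxed boxes CCCTATATGG and CCTTGTTTGG begin 84 and 34 bases before the start, and in Synm CCTCATAAGG begins 239 bases before it. A match is a description of these letters only.

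Of the 10 contractile genes, 4 were lower in polypoid than in inflamed tissue by the test over both arms, beside 1.97% of all genes. These were Lmod1, Cnn1, Tagln and Myl9, with levels 2.93- to 4.27-fold lower, and the other 6 had log2 differences of -0.03 to -1.43 that did not pass. Across the animals, untreated inflamed replicate 1 was the highest for 9 of 10 genes and untreated inflamed replicate 2 the second highest for 8. The share of all genes with this order was not counted. In these captured areas, fewer smooth muscle cells and less RNA of these genes per cell cannot be told apart.

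**Figure D1:**
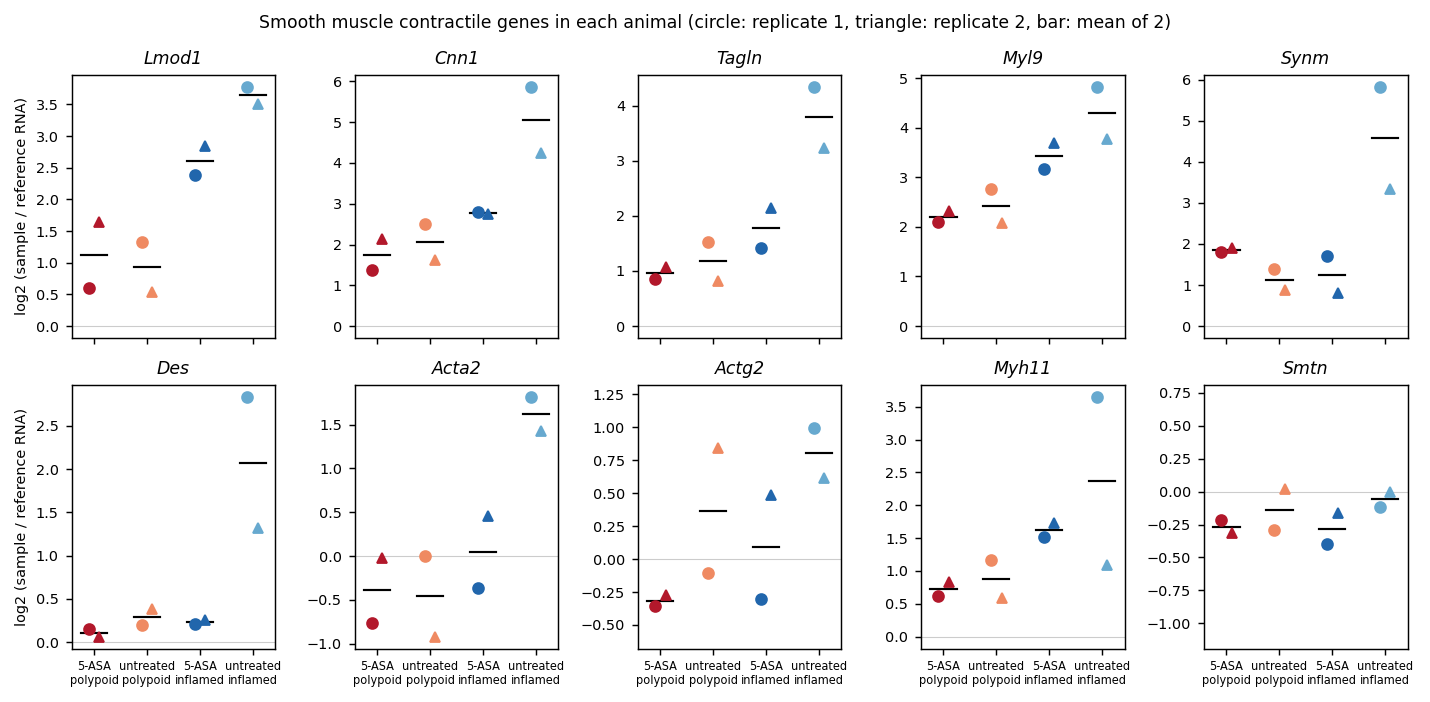
Level of each of the 10 genes in each of the 8 animals, as log2 of sample over reference RNA on the vertical axis, with the groups 5-ASA polypoid, untreated polypoid, 5-ASA inflamed and untreated inflamed from left to right; circles are replicate 1, triangles replicate 2 and bars the mean of 2 animals. The untreated inflamed animals stand highest for most genes, with Synm at 5.84 and 3.34, while Smtn stays between -0.40 and 0.02.

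Among the proteins of the thin filament, alpha smooth muscle actin (Acta2) is the actin of vascular and visceral muscle and of myofibroblasts. Acta2 was at -0.76 and -0.02 in 5-ASA polypoid, 0.01 and -0.92 in untreated polypoid, -0.36 and 0.46 in 5-ASA inflamed and 1.81 and 1.42 in untreated inflamed tissue. Both untreated inflamed animals lay above the other 6 animals, and the 5-ASA inflamed animals overlapped the polypoid ones. The log2 difference of polypoid from inflamed tissue was -1.26 ± 0.31 (SE, 4 and 4 animals, limma adjusted p = 0.074). Gamma smooth muscle actin (Actg2) is the actin of visceral muscle. Actg2 was at -0.35 and -0.28 in 5-ASA polypoid, -0.11 and 0.84 in untreated polypoid, -0.30 and 0.49 in 5-ASA inflamed and 0.996 and 0.62 in untreated inflamed tissue. The tissues overlapped in each arm, and the difference of -0.42 ± 0.27 did not pass (limma adjusted p = 0.42).

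Leiomodin 1 (Lmod1) starts and lengthens actin filaments in smooth muscle. Lmod1 was at 0.61 and 1.64 in 5-ASA polypoid, 1.33 and 0.54 in untreated polypoid, 2.38 and 2.84 in 5-ASA inflamed and 3.78 and 3.50 in untreated inflamed tissue. Every polypoid animal lay below every inflamed animal, and within inflamed tissue both 5-ASA animals lay below both untreated ones. Its level was 4.27-fold lower in polypoid tissue (log2 difference -2.10 ± 0.30, SE, limma adjusted p = 0.018), 1 of 419 genes called lower, which is 1.97% of the genes tested, against 5.93% called in either direction. Of the 10 genes, 4 were called lower and 0 higher.

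Calponin 1 (Cnn1) binds actin and restrains the myosin motor. Cnn1 was at 1.38 and 2.13 in 5-ASA polypoid, 2.50 and 1.63 in untreated polypoid, 2.79 and 2.74 in 5-ASA inflamed and 5.88 and 4.24 in untreated inflamed tissue. The tissues did not overlap, but the untreated polypoid replicate 1 and the 5-ASA inflamed animals were near each other. The level was 4.01-fold lower in polypoid tissue (-2.004 ± 0.41, limma adjusted p = 0.046). Transgelin (Tagln, also SM22) is a small actin-binding protein of the same family. Tagln was at 0.85 and 1.07 in 5-ASA polypoid, 1.53 and 0.81 in untreated polypoid, 1.41 and 2.15 in 5-ASA inflamed and 4.35 and 3.23 in untreated inflamed tissue. Its untreated polypoid replicate 1 lay above 5-ASA inflamed replicate 1, so the tissues overlapped across arms but not within an arm. Over both arms its level was 3.29-fold lower in polypoid tissue (-1.72 ± 0.32, limma adjusted p = 0.036).

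Smoothelin (Smtn) marks fully contractile smooth muscle. Smtn was at -0.21 and -0.32 in 5-ASA polypoid, -0.29 and 0.02 in untreated polypoid, -0.40 and -0.16 in 5-ASA inflamed and -0.12 and 0.00 in untreated inflamed tissue. All animals were within a narrow range, and the difference was -0.03 ± 0.12 (limma adjusted p = 0.90). Its probe was well above background on 6 of 8 polypoid and 6 of 7 inflamed arrays, and it was kept only through untreated inflamed tissue.

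The motor is smooth muscle myosin heavy chain (Myh11), and its regulatory light chain is Myl9, which myosin light chain kinase phosphorylates. Myl9 was at 2.09 and 2.31 in 5-ASA polypoid, 2.76 and 2.09 in untreated polypoid, 3.16 and 3.69 in 5-ASA inflamed and 4.83 and 3.78 in untreated inflamed tissue. Again every polypoid animal lay below every inflamed animal. The level was 2.93-fold lower in polypoid tissue (-1.55 ± 0.29, limma adjusted p = 0.036). Myh11 was at 0.63 and 0.84 in 5-ASA polypoid, 1.16 and 0.58 in untreated polypoid, 1.51 and 1.73 in 5-ASA inflamed and 3.65 and 1.09 in untreated inflamed tissue. One animal, untreated inflamed replicate 1, stood highest, while replicate 2 of that group lay within the polypoid range. The difference of -1.20 ± 0.54 did not pass (limma adjusted p = 0.25).

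The intermediate filament proteins are desmin (Des), the main such protein of muscle, and synemin (Synm), which forms filaments together with desmin or vimentin. Des was at 0.15 and 0.06 in 5-ASA polypoid, 0.20 and 0.38 in untreated polypoid, 0.21 and 0.25 in 5-ASA inflamed and 2.83 and 1.31 in untreated inflamed tissue. The untreated inflamed pair stood above the other animals, which lay between 0.06 and 0.38. The Des probe was well above background on 4 of 8 polypoid and 6 of 7 inflamed arrays, among them all 4 untreated inflamed arrays. Des was kept only through untreated inflamed tissue, the group where it was highest, so its difference of -0.96 ± 0.32 is a description (limma adjusted p = 0.14). With the scanner-processed signals it was -1.89. Synm was at 1.81 and 1.90 in 5-ASA polypoid, 1.38 and 0.89 in untreated polypoid, 1.70 and 0.81 in 5-ASA inflamed and 5.84 and 3.34 in untreated inflamed tissue. The untreated inflamed pair stood alone, and the 5-ASA polypoid animals lay slightly above the 5-ASA inflamed ones. The difference over both arms was -1.43 ± 0.55 (limma adjusted p = 0.19).

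The 10 genes shared much of their variation. The median log2 difference of polypoid from inflamed tissue was -1.34 over the 10 genes and -1.49 over the 8 above background on all arrays, beside -0.02 over all genes tested, and all 10 values were below 0. At an unadjusted p under 0.05 there were 7 of 10, and 6 of the 8 above background on all arrays, beside 23.2% of all genes. For 3 of 10, Lmod1, Cnn1 and Myl9, every polypoid animal lay below every inflamed animal, beside 7.91% of all genes. The 4 calls were sensitive to single animals. Lmod1 passed in 6 of the 8 fits that left out 1 animal, Myl9 and Tagln in 2 each and Cnn1 in 1. None of the 10 passed without 5-ASA inflamed replicate 1 or without 5-ASA inflamed replicate 2, 1 passed without 5-ASA polypoid replicate 1, without 5-ASA polypoid replicate 2 or without untreated polypoid replicate 2, and 2 passed without untreated inflamed replicate 1. Scan session 3 held 1 polypoid animal of each arm and 1 untreated inflamed animal, with no 5-ASA inflamed animal, so its difference is not the both-arm one. It was -2.41 for Lmod1, -2.37 for Cnn1, -2.28 for Tagln and -1.58 for Myl9, with no test. With session as a fixed block the differences were -1.71 for Lmod1, -0.82 for Cnn1, -0.81 for Tagln and -0.74 for Myl9, and the median over the 10 genes was -0.37. None of the 10 passed in that fit, nor did any other gene.

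Within untreated mice, 7 of 10 genes were lower in both polypoid animals than in both inflamed animals, beside 22.4% of all genes, and the exceptions were Actg2, Myh11 and Smtn. Of the 8 genes above background on all arrays, 6 were lower in untreated and 5 in 5-ASA mice. The median log2 difference was -1.98, and Synm had the most negative value, -3.45 ± 0.78. Within 5-ASA mice the median was -0.63, and it turned to 0.56 with session as a fixed block. No session held both tissues of 5-ASA mice, so that fit links them through untreated animals. Tissue and session cannot be told apart in this arm. In 5-ASA mice 6 of 10 genes were lower in both polypoid animals (28.5% of all genes), and Synm was higher in both. By limma adjusted p, 0 of 10 genes passed in either arm, while 0.164% of genes passed in untreated and 3.06% in 5-ASA mice. At an unadjusted p under 0.05 the counts were 7 of 10 in untreated mice, beside 12.6% of genes, and 2 of 10 in 5-ASA mice, beside 19.1%. Of the 8 genes above background on all arrays, 6 were under this p in untreated mice and 2 in 5-ASA mice.

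**Figure D2:**
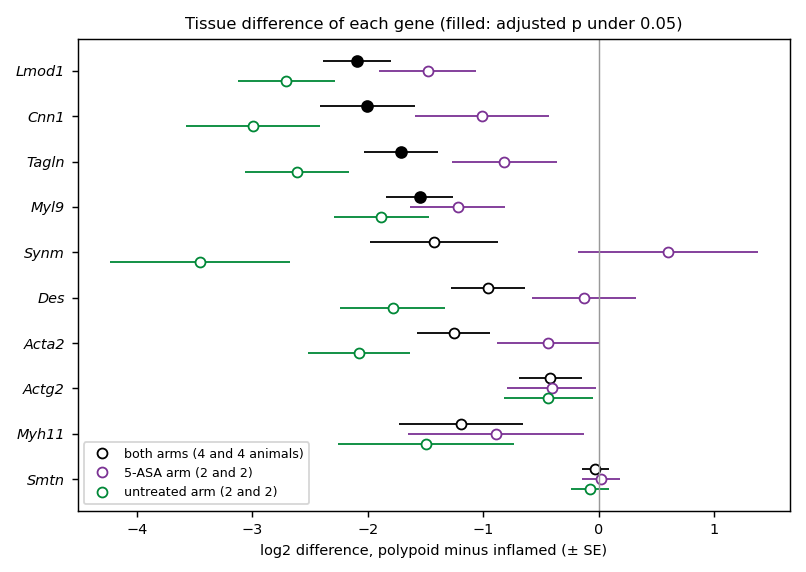
Log2 difference of polypoid minus inflamed tissue (horizontal axis) for each of the 10 genes, with the SE of the limma fit, over both arms, in the 5-ASA arm and in the untreated arm. Filled points, at an adjusted p under 0.05, are the both-arm values of Lmod1, Cnn1, Tagln and Myl9, and the untreated values lie left of the 5-ASA values for every gene.

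The study also asked what 5-ASA does. No gene of the 21301 passed the limma test for 5-ASA in either tissue, over both tissues or for the difference between tissues (0% called). In inflamed tissue all 10 contractile genes had lower means in 5-ASA than in untreated mice, with a median log2 difference of -1.30. Of the 10 genes, 9 were lower in both 5-ASA animals than in both untreated animals, beside 14.6% of all genes, and Myh11 was the exception. These 9 include Des and Smtn, kept only through untreated inflamed tissue, and of the 8 genes above background on all arrays 7 were lower. Synm had -3.33 ± 0.78, Cnn1 -2.30 ± 0.58, Tagln -2.01 ± 0.45, Des -1.84 ± 0.45 and Acta2 -1.57 ± 0.44, each with a limma adjusted p of 0.97. With the scanner-processed signals Des was at -3.74, and with the mean of a gene's probes Acta2 was at -0.95. The values of Lmod1, Myl9, Myh11, Actg2 and Smtn ran from -1.03 to -0.22. At an unadjusted p under 0.05 there were 6 of 10, and 5 of the 8 above background on all arrays, beside 4.38% of all genes. The untreated inflamed animals are also the control samples of the untreated tissue comparison, so the values of the contrasts share those animals.

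The 5-ASA difference in inflamed tissue rested partly on untreated inflamed replicate 1. Without that animal the median was -0.99 and Myh11 was at 0.53, with 1 untreated animal assumed to vary like the other groups. Between the animals of session 1, the median difference of the 5-ASA from the untreated animal was -2.16. In polypoid tissue the median for 5-ASA was -0.16, with -0.60 within session 2 and 0.26 within session 3. There 2 of 10 genes, Actg2 and Des, were lower in both 5-ASA animals and Synm higher in both, beside 19.2% of all genes lower. At an unadjusted p under 0.05 there were 0 of 10 in polypoid tissue (7.76% of all genes), 4 of 10 over both tissues (6.38%) and 4 of 10 for the difference between tissues (5.97%). Of the 8 genes above background on all arrays, 3 were under this p over both tissues and 3 for the difference between tissues.

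The spread between the 2 animals of a group was large for these genes. In untreated inflamed tissue, replicate 1 exceeded replicate 2 for 9 of 10 genes, with a median difference of 1.09 and a range of -0.12 to 2.55. Over all genes the median of this difference was 0.02, and the median of its size was 0.28. The median difference of replicate 1 from replicate 2 was -0.22 in 5-ASA polypoid, 0.62 in untreated polypoid and -0.35 in 5-ASA inflamed tissue. The mean of the 10 genes, each centred over the animals, was -0.84 and -0.52 in 5-ASA polypoid, -0.41 and -0.77 in untreated polypoid, -0.24 and 0.05 in 5-ASA inflamed and 1.93 and 0.80 in untreated inflamed tissue. This mean held 71.7% of the variance of the 10 genes. Across the 8 animals all 45 pairs of genes had a Pearson r above 0, with a median of 0.81 and a range of 0.03 to 0.98. These are descriptions over points that share arrays, amplification and sessions. Cnn1 and Tagln followed the mean of the other 9 genes most closely, both at r = 0.99, and Actg2 at 0.61 and Smtn at 0.30 the least.

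Probes of the same gene did not always agree. Of the kept Acta2 probes, the brightest gave the log2 difference of -1.26 for polypoid minus inflamed tissue used above, the second brightest gave -0.96, and the others gave -0.06 and -0.14. The third brightest stayed between -1.73 and -0.17 in all animals, and the untreated inflamed animals were not the highest there. The dimmer Tagln probe gave -0.70 against -1.72 for the brighter one, and the dimmer Synm probe -1.13 against -1.43. With the mean of a gene's probes, 3 of the 10 genes passed in place of 4, Tagln was at -1.21 (limma adjusted p = 0.13) and Acta2 at -0.61. Arrays of 1 animal in opposite dyes differed by a median of 0.14, and at most by 0.52, with the dye effect still in these values. The Cnn1, Myl9 and Acta2 spots were saturated on 1 array of untreated inflamed replicate 1, whose ratios can only be too low there.

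**Figure D3:**
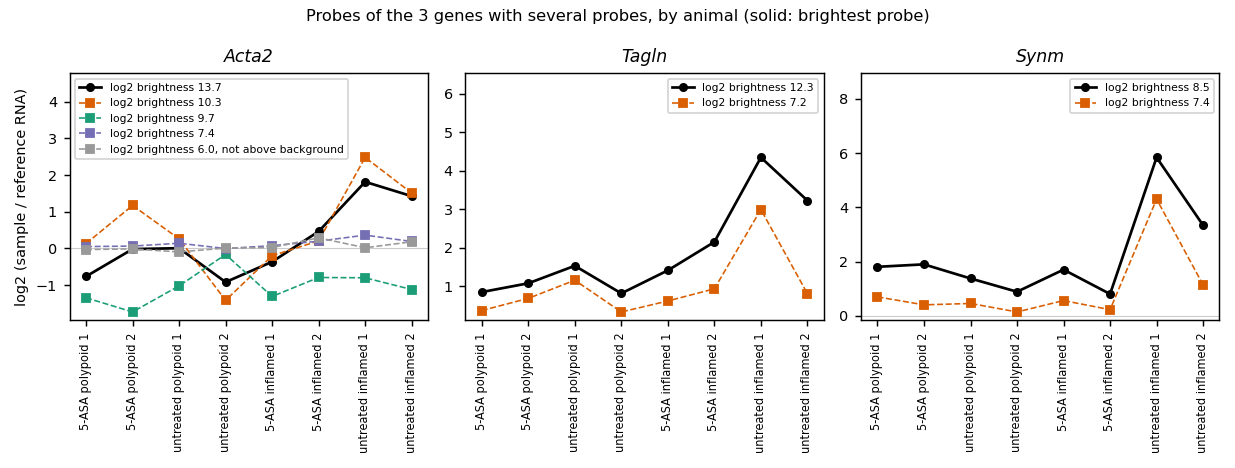
Level of each probe of Acta2, Tagln and Synm in each animal, as log2 of sample over reference RNA, with the brightest probe in solid black and its mean brightness on the log2 scale in the legend. For Synm both probes are highest in untreated inflamed replicate 1, at 5.84 and 4.30, while Acta2 probes disagree.

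Genes that work beside the contractile set moved in part. Of 20 genes of thin filaments, dense bodies and membrane anchoring, 0 passed higher and 4 passed lower in polypoid tissue, with a median log2 difference of -0.18. Over all genes 1.97% passed lower. An unadjusted p under 0.05 was found for 9 of the 20, beside 23.2% of all genes. Pgm5, a protein of adhesion plaques, was at -1.97 ± 0.24 (limma adjusted p = 0.014). Integrin alpha 8 (Itga8) was at -1.58 ± 0.23 (limma adjusted p = 0.019), the LIM protein Fhl1 at -2.01 ± 0.36 (limma adjusted p = 0.032) and caveolin 1 (Cav1), which forms membrane pits in smooth muscle and endothelium, at -1.53 ± 0.29 (limma adjusted p = 0.037). Fhl1 was at 3.66 and 3.72 in 5-ASA inflamed and 3.65 and 3.71 in untreated inflamed animals, but its spots were saturated on 4 of the 15 arrays, so the order of these animals cannot be read. Weaker probes of Pgm5 and Itga8 gave -0.51 for Pgm5 and -1.04 and -0.02 for Itga8.

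Of 19 measured genes of smooth muscle signalling and transcription, 0 passed limma's test in either direction (median -0.11), and 3 had an unadjusted p under 0.05, beside 23.2% of all genes. The 2 with the smallest p were the myosin phosphatase subunit Ppp1r12b at -1.25 ± 0.34 (limma adjusted p = 0.089) and myosin light chain kinase (Mylk) at -1.36 ± 0.46 (limma adjusted p = 0.15). Their other probes gave -0.05 and -0.06 for Ppp1r12b and -1.05 and 0.00 for Mylk. Among 11 measured non-muscle counterparts, 2 rose and 0 fell, beside 5.93% of all genes called in either direction. An unadjusted p under 0.05 was found for 3 of the 11, beside 23.2% of all genes. Calponin 3 (Cnn3) was 2.88-fold higher in polypoid tissue (1.53 ± 0.23, limma adjusted p = 0.020) and vimentin (Vim), the intermediate filament protein of mesenchymal cells, 2.08-fold higher (1.06 ± 0.20, limma adjusted p = 0.036), with saturated spots on 2 arrays. Of 15 measured striated muscle counterparts, 2 rose and 0 fell, beside the same 5.93% of all genes, and 3 had an unadjusted p under 0.05, beside 23.2%. Myl1, a light chain of skeletal muscle myosin, was at 5.39 and 3.82 in 5-ASA polypoid and 5.73 and 4.13 in untreated polypoid tissue, against 0.78 and -0.17 in 5-ASA inflamed and 0.99 and -0.25 in untreated inflamed tissue. That is, with 1 array saturated, 21.5-fold higher in polypoid tissue (4.43 ± 0.56, limma adjusted p = 0.014), and the polypoid and inflamed animals did not overlap. Troponin I of fast skeletal muscle (Tnni2) was 2.33-fold higher (1.22 ± 0.22, limma adjusted p = 0.034). The median of the striated list was -0.11, with 12 of 15 values below 0.

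Markers of other cells of the colon wall were set beside these values, as each animal's mean over a list of the log2 difference from the 8-animal mean. Untreated inflamed replicate 1, highest for the contractile genes, was also highest for the 3 markers of interstitial cells of Cajal, the pacemaker cells of gut muscle, at 0.76, for 9 markers of enteric neurons and glia, at 0.61, for 6 pericyte markers, at 0.50, and for 8 leukocyte markers, at 0.42. In 5-ASA inflamed tissue these lists were at 0.51 and 0.53 for the pacemaker cells and at 0.14 and 0.30 for neurons and glia, where the contractile genes were at -0.24 and 0.05. Untreated inflamed replicate 2, second highest for the contractile genes, was at -0.51 for the pacemaker cells and -0.02 for neurons and glia. For pericytes and leukocytes the other animals lay at or below 0.19 and 0.20, with untreated inflamed replicate 2 at -0.36 for pericytes and -0.14 for leukocytes. The polypoid animals ran from -0.50 to -0.10 for the pacemaker cells and from -0.28 to -0.22 for neurons and glia. The part of these cell types in the differences of the contractile genes was not tested.

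Of 3 pacemaker markers, 0 passed limma's test of tissue and 1 had an unadjusted p under 0.05, beside 23.2% of all genes (median -0.64, with Etv1 at -0.59 ± 0.16 and Ano1 at -0.70 ± 0.43). Among 9 measured neuron and glia markers, Stmn2 was lower at -1.16 ± 0.14 (limma adjusted p = 0.013), though its second probe gave 0.00, and Snap25 was at -1.33 ± 0.39 without passing. That is 1 of 9 called lower, beside 1.97% of all genes, and 3 of 9 had an unadjusted p under 0.05, beside 23.2%. Of 10 fibroblast markers 4 had values above 0 and 6 below, with a median of -0.35 and a highest value of 0.69 for Pdgfra, named after its value was seen. Of them 1 fell, periostin (Postn) at -2.16 ± 0.42 (limma adjusted p = 0.041, second probe -0.34), and Lum was at -1.75 ± 0.54 without passing. Over all genes 1.97% were called lower. An unadjusted p under 0.05 was found for 5 of the 10 fibroblast markers, beside 23.2% of all genes. The fibroblast list ran from -0.45 to -0.22 in 5-ASA polypoid, from -0.51 to 0.34 in untreated polypoid, from 0.18 to 0.49 in 5-ASA inflamed and from 0.02 to 0.15 in untreated inflamed animals.

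By limma adjusted p, 0 of 6 pericyte, 0 of 6 endothelial, 0 of 10 epithelial and 0 of 8 leukocyte markers passed, with medians of -0.15 for pericytes, -0.01 for endothelium, -0.26 for epithelium and -0.16 for leukocytes. At an unadjusted p under 0.05 there were 0 of 6 pericyte, 0 of 6 endothelial, 4 of 10 epithelial and 2 of 8 leukocyte markers, beside 23.2% of all genes. The markers with the smallest p were Pdgfrb at 0.36 ± 0.23 and Rgs5 at -0.53 ± 0.39 for pericytes, Cdh5 at 0.27 ± 0.25 and Cldn5 at 0.30 ± 0.35 for endothelium, Krt20 at -0.97 ± 0.26 and Cldn3 at -0.62 ± 0.19 for epithelium, and Jchain at -1.76 ± 0.47 and Itgam at 0.55 ± 0.20 for leukocytes. Krt20 was saturated on 8 of the 15 arrays and Jchain on 3. Second probes gave -3.28 for Jchain, 0.24 for Itgam and -0.17 for Rgs5. The epithelial list ran from -0.49 to -0.21 in 5-ASA polypoid, -0.02 to 0.25 in untreated polypoid, 0.24 to 0.29 in 5-ASA inflamed and -0.06 to 0.00 in untreated inflamed animals.

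**Figure D4:**
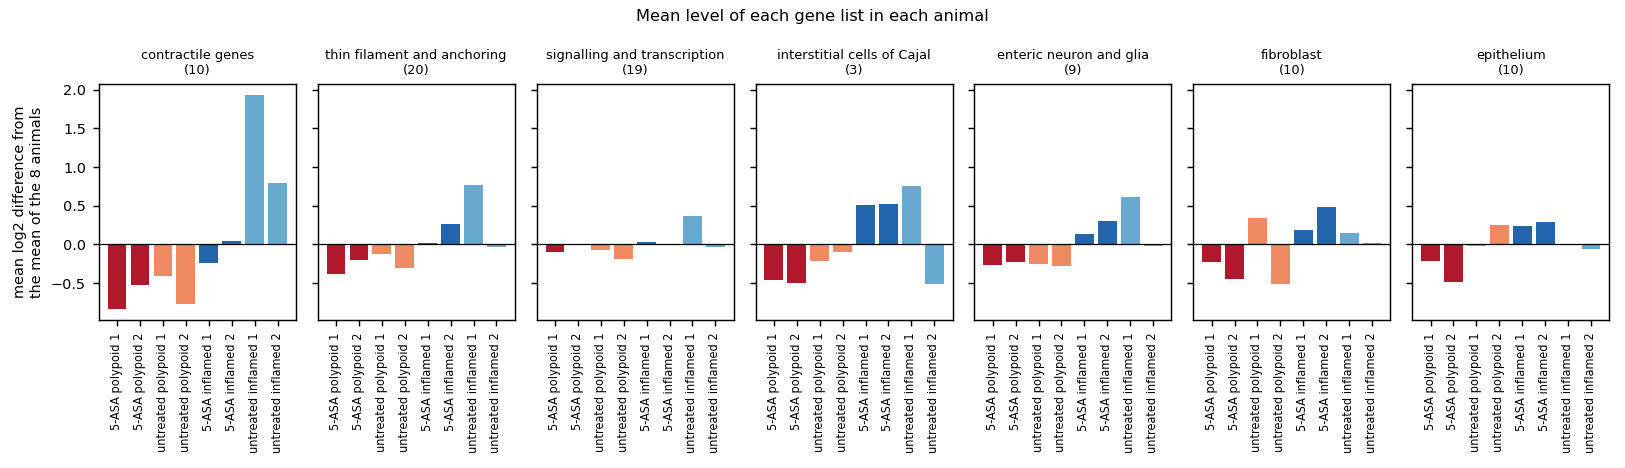
Mean over each gene list of the log2 difference from the mean of the 8 animals (vertical axis), with 1 bar per animal, from 5-ASA polypoid at left to untreated inflamed at right, and the number of measured genes in brackets. The contractile genes reach 1.93 and 0.80 in the untreated inflamed animals, while the epithelial list stays between -0.49 and 0.29.

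The 10 genes most like the mean of the contractile set over the 8 animals had a Pearson r of 0.96 to 0.99, given as a description with no test. The closest was Snph, at r = 0.99, and others among them were Wscd2, Bves, Speg, Hand1, Tpm2, Prdm6, Mrgprf and a transcript named on the array AK038867. Tpm2 is beta-tropomyosin of the thin filament, Speg a kinase of muscle, Bves a membrane protein of muscle and Hand1 a transcription factor. Tpm2 was at -0.46 and -0.45 in 5-ASA polypoid, 0.13 and -0.53 in untreated polypoid, -0.21 and 1.01 in 5-ASA inflamed and 2.70 and 1.16 in untreated inflamed tissue, and its 2 kept probes gave similar log2 tissue differences of -1.49 and -1.39. Of the 10, 3 passed lower in the tissue comparison, beside 1.97% of all genes. These were Mrgprf (-1.32 ± 0.18, limma adjusted p = 0.018), AK038867 (-0.59 ± 0.11, limma adjusted p = 0.036) and Wscd2 (-1.06 ± 0.21, limma adjusted p = 0.042). The 10 were picked by likeness to a mean that was lower in every polypoid animal, so this count is no separate result. The other Wscd2 probes gave -0.08 and -0.18.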

How the data were processed

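Per the file headers, the deposited scanner files hold intensity values of each spot in the Cy3 and Cy5 channels with local background and a log10 ratio of red over green, read by Agilent Feature Extraction 9.1.1.1. That tool is also named in the submitters' processing notes. The deposited matrix was found by comparison with the scanner ratios to be in log2 units, sample over reference, swapped arrays turned; its centring and normalization are not given in the sources used here.

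The software was R 4.3.3, limma 3.58.1 and statmod 1.5.0. After normexp background correction (offset 50) and loess within each array, control and outlier spots were left out and swapped arrays were turned. A fit of animal plus dye over 15 arrays gave 1 value per animal. Probes well above background in the sample channel on every array of at least 1 group were kept (30166), and the brightest probe stood for a gene. A limma fit of group means over 8 animals (4 residual and 2.14 prior degrees of freedom) was adjusted by Benjamini-Hochberg over 21301 genes at 0.05. The method was tested on simulated data. An accession in the mouse reference table named 22864 probes, its gene name 10230 more, and 8080 kept the array's name. Neither array files nor labels name a genome build, so coordinates are those of the RefSeq windows.

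The members and the other gene lists were chosen with earlier results of these data known. Named genes were all members; from each list up to 6 that passed in the tissue comparison, or the 2 with the smallest p where fewer than 2 passed; and the 10 genes most like the members' mean. Animals are the replicates, and 2 per group limit the precision. Some genes that the rule names are not reported here.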

Additional observations from a re-analysis of the deposited data

Results flagged for a closer look

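Synm was the 1 member whose tissue difference had opposite directions in the arms in every animal. Both 5-ASA polypoid animals lay above both 5-ASA inflamed animals (1.81 and 1.90 against 1.70 and 0.81), and both untreated polypoid animals lay below both untreated inflamed animals (1.38 and 0.89 against 5.84 and 3.34). The difference between the arms was 4.05 ± 1.103 on the log2 scale (5-ASA arm minus untreated arm, limma adjusted p = 0.80, unadjusted p = 0.010). It was above 0 in all 18 alternative fits, at 2.80 to 5.30. Those fits reuse the same animals, and some, such as that with no filter on dim probes, could not move it from 4.05. The tissue difference inside the 5-ASA arm was 0.60 ± 0.78. The second Synm probe, at 0.70 and 0.41 against 0.56 and 0.23 in 5-ASA tissue, overlapped. By Dixon's ratio of gap to range, no member had an outlying animal in 20 sets of 4 animals of 1 tissue. The sets pooled both arms, so a distance between arms widens the range. This check cannot show whether untreated inflamed replicate 1 stood apart from its own group.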

How the results depend on the processing

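The 4 members called in polypoid over inflamed tissue, among 1264 genes called, became 6 with the scanner-processed signals, among 1800 genes. These 6 include Des, kept only through untreated inflamed tissue. There were 3 members with the deposited table (967 genes), with no filter on dim probes (1134) and with the mean of a gene's probes (1310). Session as a random block also gave 3 members (correlation 0.151). The members called became 0 with session as a fixed block, which leaves 1 residual degree of freedom and called no gene. Leaving out 1 animal gave 0 to 7 members and 126 to 1326 genes against 1264; without untreated inflamed replicate 2 it was 7. In the untreated arm the scanner-processed signals called 3 members in place of 0, among 118 genes in place of 35. No alternative called a member for 5-ASA. With session as a fixed block the tissue difference turned to 0.12 for Synm, 0.22 for Des, 0.32 for Actg2 and 0.68 for Myh11. Leaving out 1 animal, Smtn ran from -0.11 to 0.044, above 0 without untreated polypoid replicate 1 and, at 0.03, without 5-ASA inflamed replicate 2, and Myh11 for 5-ASA in inflamed tissue ran from -2.03 to 0.53, above 0 without untreated inflamed replicate 1. The cause was not tested. With session as a fixed block the median over members in 5-ASA mice turned to 0.56, where no session held both tissues. An alternative chosen after seeing the data counted only the 8 members above background on all arrays, in the same fit. It left out Des and Smtn, which were called in no comparison, so the counts of calls could not change. The members' median was -0.98 without untreated inflamed replicate 1 and -1.83 without replicate 2. The replicate block called 4 members and 1791 genes and changed no member's call. Each animal gave tissue to 1 group, so the numbers were not taken as pairs. Deviations of same-numbered animals correlated at 0.03 to 0.36, all above 0, and the replicate numbers go with scan session. Saturated and dim spots limit Cnn1, Myl9, Acta2, Des and Smtn.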
